A study of Mus musculus with 15 samples.

Results

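The nuclear genes for the subunits of the mitochondrial respiratory chain and of ATP synthase were followed through mouse spermatogenesis, during a course of the bromodomain inhibitor JQ1 and after its withdrawal. Members were taken by gene symbol: the Nduf genes of complex I, the succinate dehydrogenase genes of complex II, the Uqcr genes of complex III, both cytochrome c genes (the somatic Cycs and the testis form Cyct), the Cox4 to Cox8 genes of complex IV and the Atp5 genes of complex V, which is ATP synthase. The rule gave 87 members among 32285 measured genes, with 38 in complex I, 4 in complex II, 8 in complex III, 2 for cytochrome c, 18 in complex IV and 17 in complex V. The X chromosome carries 3 of them, Ndufa1, Ndufb11 and Cox7b.

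Single-cell RNA-seq was performed on testes of 15 DBA/2J mice, 3 per group, with a library for each mouse. Treated mice (T) received JQ1 at 50 mg/kg daily for 3 wk and were 10 wk old at sampling, and vehicle controls of the same age (VC-T) received the carrier alone. Recovery mice (R) had the same course, were sampled 6 wk after the last dose at 16 wk of age, and had vehicle controls of that age (VC-R). A single untreated group (UC), 15 wk old, was the control for both time points, so T and UC differed in age as well as in treatment, and the comparisons of T and of R with UC share their control libraries. JQ1 binds the BET proteins, among them the testis-specific BRDT, and was given to the whole animal, so that a change in germ cells cannot be assigned to any BET protein or to an effect within those cells.

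The respiratory chain passes electrons from NADH (complex I) and succinate (complex II) through complex III and the mobile carrier cytochrome c to oxygen at complex IV, and complex V makes ATP from the resulting proton gradient. Most subunits are encoded in the nucleus and a small core set in mitochondrial DNA. Male germ cells are known for replacing several housekeeping subunits by paralogs expressed mainly in the testis: Cyct for Cycs, Cox6b2 for Cox6b1, Cox7b2 for the X-linked Cox7b, and Cox8c for Cox8a. The X chromosome is silenced in spermatocytes during meiosis, and spermatocytes and spermatids use lactate supplied by Sertoli cells, which is oxidised in mitochondria.

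Since the somatic and testis forms are paralogs with different promoters, the promoters of the pairs are shown first. The stretch from 250 bases before to 50 bases after each start site was taken from RefSeq (GRCm38.p6), in which 69 of the 87 members had 74 listed promoters; Cox8c was not among them. The windows were searched on both strands for the NRF1 site (GCGCA, any base and GCGC), the cAMP response element (CRE) TGACGTCA, its core TGACG, which is part of the full element, and the ETS site CCGGAAGT. Capitals mark matches. The windows were chr6:50566520-50566819 for Cycs, chr2:76360404-76360703 for Cyct, chr7:30626065-30626364 for Cox6b1, chr7:4753045-4753344 for Cox6b2, chrX:106015450-106015749 for Cox7b and chr5:71548156-71548455 for Cox7b2, on the plus strand for Cox7b and the minus strand for the others.
Cycs: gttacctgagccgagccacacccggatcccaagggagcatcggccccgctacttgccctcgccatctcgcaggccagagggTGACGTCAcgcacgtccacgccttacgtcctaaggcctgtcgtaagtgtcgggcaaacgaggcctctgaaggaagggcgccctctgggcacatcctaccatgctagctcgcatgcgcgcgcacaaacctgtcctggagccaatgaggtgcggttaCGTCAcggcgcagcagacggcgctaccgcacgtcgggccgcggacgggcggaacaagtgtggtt
Cyct: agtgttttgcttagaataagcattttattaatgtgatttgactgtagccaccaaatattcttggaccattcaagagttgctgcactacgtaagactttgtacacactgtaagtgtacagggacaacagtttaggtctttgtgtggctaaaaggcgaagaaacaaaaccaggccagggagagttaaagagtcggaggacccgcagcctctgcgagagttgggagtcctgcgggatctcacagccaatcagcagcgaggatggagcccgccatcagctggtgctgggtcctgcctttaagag
Cox6b1: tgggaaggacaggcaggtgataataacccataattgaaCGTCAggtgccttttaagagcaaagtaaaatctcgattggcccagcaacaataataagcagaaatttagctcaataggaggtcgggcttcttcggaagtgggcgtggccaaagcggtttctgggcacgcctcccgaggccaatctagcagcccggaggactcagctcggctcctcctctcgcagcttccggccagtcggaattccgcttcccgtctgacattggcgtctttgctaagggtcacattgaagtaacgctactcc
Cox6b2: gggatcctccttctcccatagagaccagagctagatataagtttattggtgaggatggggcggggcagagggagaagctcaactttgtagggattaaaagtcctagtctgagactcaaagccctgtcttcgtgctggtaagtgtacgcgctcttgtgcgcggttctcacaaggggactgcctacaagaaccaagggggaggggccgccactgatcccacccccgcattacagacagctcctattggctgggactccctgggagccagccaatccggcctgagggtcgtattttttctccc
Cox7b: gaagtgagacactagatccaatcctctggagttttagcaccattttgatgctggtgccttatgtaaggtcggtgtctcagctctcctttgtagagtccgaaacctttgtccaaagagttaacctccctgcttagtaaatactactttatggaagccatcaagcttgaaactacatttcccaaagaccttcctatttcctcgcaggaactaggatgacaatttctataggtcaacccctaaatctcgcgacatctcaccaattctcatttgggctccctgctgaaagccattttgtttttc
Cox7b2: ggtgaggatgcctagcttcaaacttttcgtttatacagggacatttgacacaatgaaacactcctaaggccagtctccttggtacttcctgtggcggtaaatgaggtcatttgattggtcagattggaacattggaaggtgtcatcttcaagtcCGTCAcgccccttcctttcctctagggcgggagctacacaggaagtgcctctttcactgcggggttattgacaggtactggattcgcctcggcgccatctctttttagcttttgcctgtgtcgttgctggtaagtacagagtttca

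The cytochrome c promoters differed most among the pairs. The Cycs window held 32 CpG dinucleotides and 1 full CRE, whereas the Cyct window held 8 CpG dinucleotides and none of the searched motifs. The Cox6b1 window held 17 CpG dinucleotides and the Cox6b2 window 10, and the order was the other way for Cox7b with 5 and Cox7b2 with 10. The Cox6b2 and Cox7b windows held no match either, and none of the printed windows held an exact match to the NRF1 site. Only exact matches were searched, so a variant of a site, as in TCGCATGCGC of the Cycs window, was not counted. Among all member promoters the NRF1 site was present in 24.3%, against 4.60% of 32851 promoters of the same length. The full CRE was present in 6.76% against 1.79%, in Cycs, Ndufa10, Ndufa11, Ndufb2 and Uqcrfs1. The core TGACG was present in 37.8% against 20.8%, and the ETS site in 6.76% against 3.89%. The median GC content was 57.3% for members and 52.7% for all promoters, and the median count of CpG dinucleotides was 19 and 7. The NRF1, CRE and ETS strings each contain CG, and the shares were not adjusted for this. The motif shares describe sequence only.

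The libraries held 9673587 to 98724982 unique molecular identifiers (UMIs, counted transcript molecules), the deepest being those of R, and 72362 cells passed the filters, 2430 to 12744 per library. Cells were clustered and the classes named from marker genes. The summed level of 7 spermatogonia markers was 1514 to 2356 counts per 1000000 UMIs of the class (plain CPM) in spermatogonia-like cells and at most 136 in the other germ classes. T libraries held 1 to 5 spermatozoa-like cells, so T was not compared there. VC-T replicate 1, which held 0 such cells and which the study left out, was left out of the tests. Over all kept cells of a library, members took 1.61 to 1.82% of UMIs in UC, 1.67 to 1.74% in R and 2.78 to 2.82% in T. They took 1.79 to 1.86% in VC-R and 2.69, 1.78 and 2.18% in VC-T 1, 2 and 3. These shares pool all classes, and UC libraries held 1750 to 2247 spermatozoa-like cells. The part of the mix of cells in the shares was not tested.

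In UC testes the nuclear respiratory genes stood highest in spermatocytes and lowest in spermatozoa-like cells. In plain CPM, the summed level of all members was 27036 ± 874 (SD, n = 3 libraries) in spermatogonia-like cells, 31823 ± 658 in early and 30227 ± 1259 in later spermatocytes, 20118 ± 616 in spermatid-like cells and 7435 ± 359 in spermatozoa-like cells. The libraries of spermatogonia did not overlap those of early spermatocytes, nor did those of later spermatocytes, spermatids and spermatozoa-like cells overlap each other. In spermatozoa-like cells the protamine and transition protein genes Prm1, Prm2, Tnp1 and Tnp2, which package sperm DNA, alone took 207417 to 215001 plain CPM. These levels are relative to all RNA of a class, so a rise of other RNA and a fall of the members cannot be told apart.

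**Figure D1:**
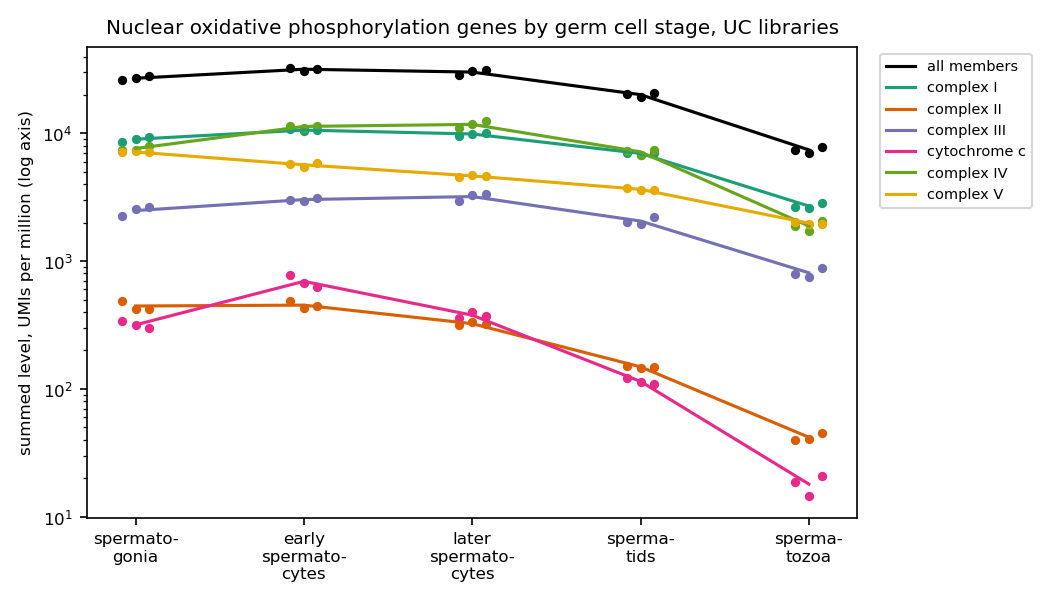
Summed plain CPM (log axis) of the members of each complex by germ cell stage, with a point for each of the 3 UC libraries and lines through the means. Complex IV and cytochrome c stood higher in early spermatocytes than in spermatogonia, complex V fell at every step, and every complex was lowest in spermatozoa-like cells.

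The complexes took different courses. Complex IV, the oxygen-consuming end of the chain, was at 7427 to 7998 summed plain CPM in spermatogonia and 11001 to 12423 in later spermatocytes. Complex V was highest in spermatogonia, at 7098 to 7267, and was at 4597 to 4694 in later spermatocytes, 3613 to 3715 in spermatids and 1955 to 2028 in spermatozoa-like cells. Complex I was at 8585 to 9455 in spermatogonia, 10487 to 10759 in early spermatocytes and 6810.3 to 7087 in spermatids. Complex III was at 2236 to 2659.8 in spermatogonia and 2964 to 3355 in later spermatocytes. Complex II, the link to the TCA cycle, was at 423 to 489 in spermatogonia and 146 to 151 in spermatids. Cytochrome c, with both forms together, was at 631 to 773 in early spermatocytes and 109 to 122 in spermatids.

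Of 83 members with at least 10 plain CPM in a stage, 32 were highest in spermatogonia, 28 in early spermatocytes, 17 in later spermatocytes, 5 in spermatids and 1 in spermatozoa-like cells. From spermatogonia to later spermatocytes 33 of 83 were lower with no overlap between libraries and 35 were higher, against 46.2% and 27.9% of all genes at that level. From later spermatocytes to spermatids 67 of 81 were lower and 10 higher, against 52.0% and 38.4%. From spermatids to spermatozoa-like cells 72 of 77 were lower and 1 was higher, against 75.5% and 16.8%. The stages come from the same mice and were not tested.

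The most abundant member was Cox8c, the testis form of a small complex IV subunit, with a mean of 1576 plain CPM over the UC germ stages. Within complex IV it was followed by Cox4i1 (1219), the common form of subunit 4, Cox6b2 (808), Cox7a2 (774) and Cox5a (706), a nuclear subunit next to the catalytic core. Uqcrq (889.6) led complex III, Ndufb8 (489.7) complex I, Atp5h (517), a subunit of the peripheral stalk, complex V, and Sdhb (121), the iron-sulfur subunit, complex II. Transcripts were tagged at the 3′ end, so these levels do not grow with transcript length. Members of a complex did not share a course. Ndufb9 had a mean of 899 in spermatogonia and 153 in spermatids, and Ndufa7 352 and 582, both accessory subunits of complex I. Uqcrq went from 424 in spermatogonia to 1461 in later spermatocytes. Atp5mpl, a small subunit of complex V, had a low of 56.9 in later spermatocytes between 384 in spermatogonia and 320.4 in spermatids, and Atp5md was alike (296, 56.6 and 234).

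Each of the 4 somatic and testis pairs changed over between spermatogonia and later spermatocytes. Cox8c was at 359, 118 and 362 plain CPM in the spermatogonia-like cells of UC 1, 2 and 3, and at 2967, 3325 and 3500.1 in later spermatocytes. Its somatic counterpart Cox8a went the other way, from 409, 574 and 591 to 21.0, 17.0 and 18.0. Both forms lay clear of overlap between these stages, as did both forms of the other pairs. Cox6b2, a subunit on the side of complex IV that faces cytochrome c, was at 93.6 to 168 in spermatogonia and 1185 to 1469 in later spermatocytes, and Cox6b1 at 349 to 492 and 31.1 to 34.5. Cox7b2 was at 163 to 219.6 and 869 to 939.8, and the X-linked Cox7b at 49.6 to 119.8 and 0.435 to 0.779.

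Cyct was highest in early spermatocytes. It was at 52.9 to 61.5 plain CPM in spermatogonia, 538 to 729 in early spermatocytes, 337 to 397 in later ones and 92.9 to 106 in spermatids. Cycs was at 236 to 279.5 in spermatogonia and at 19.5, 3.48 and 3.51 in the later spermatocytes of UC 1, 2 and 3, so UC 1 stood apart. Cycs has processed pseudogenes in the mouse genome, and its counts are uncertain to that extent. As a share of the UMIs of its pair, the testis form made up 18.4% ± 1.98 (SD, n = 3) for Cyct, 24.5% ± 7.46 for Cox6b2, 69.4% ± 9.20 for Cox7b2 and 33.9% ± 15.3 for Cox8c in UC spermatogonia. In later spermatocytes it made up 97.6%, 97.6%, 99.9% and 99.4%. In spermatozoa-like cells the shares were 71.4%, 96.5%, 99.2% and 98.9%, with Cyct alone well below its share in later spermatocytes.

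**Figure D2:**
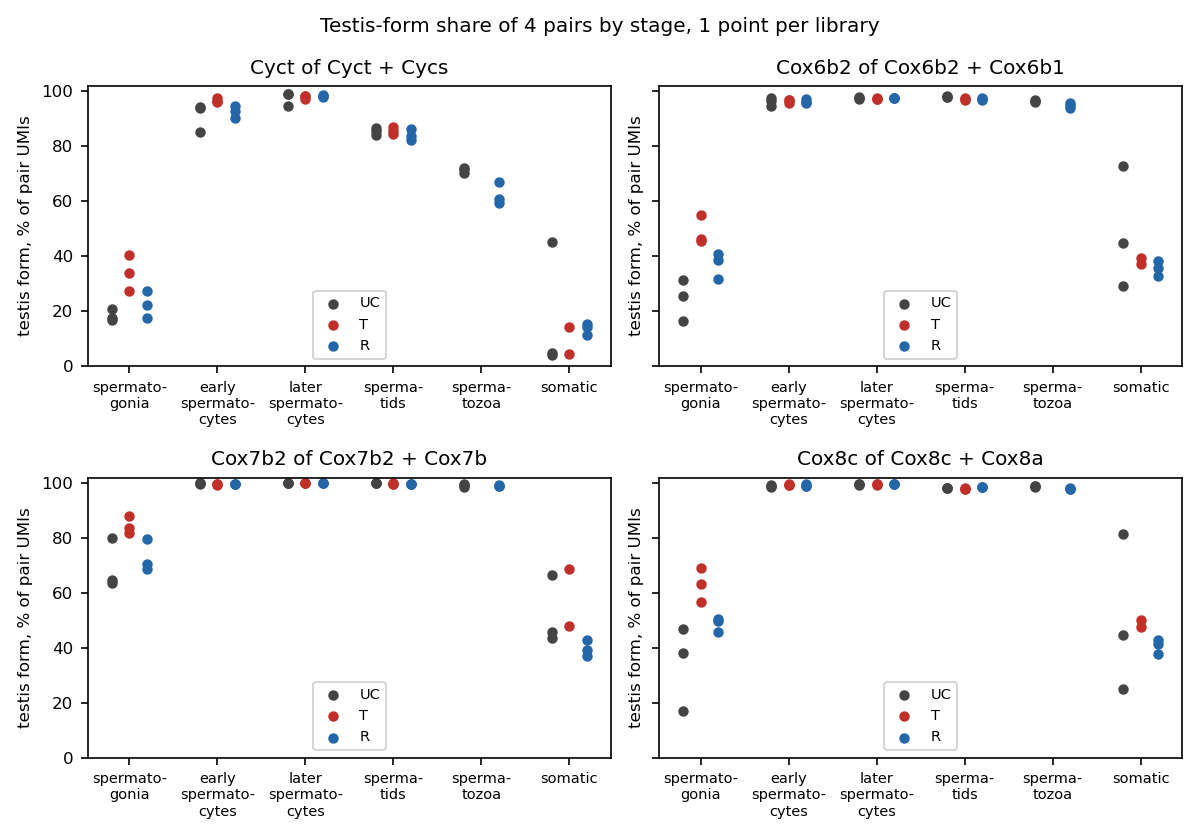
Testis form as a percent of the UMIs of its pair by stage, with a point per library for UC, T and R; the somatic column pools the somatic-like cells of libraries with at least 10 of them. In spermatogonia the 3 T libraries lay above the 3 UC libraries in each pair. VC-R is not plotted, and its range there overlapped that of T for Cyct, Cox7b2 and Cox8c.

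Somatic cells should lack the testis forms and were read as a background. In a pool of Leydig-like, macrophage-like and myoid-like cells and the Sertoli-like cells led by Clu, 23 to 87 per UC library and chosen as a pool after values were seen, the testis form made up 4.05 to 45.2% for Cyct, 29.2 to 72.9% for Cox6b2, 43.5 to 66.7% for Cox7b2 and 25 to 81.2% for Cox8c. For Cox6b2 and Cox8c these ranges overlapped those of UC spermatogonia, so their shares there cannot be told from free RNA. For Cyct and Cox7b2 the overlap rested on UC 1, which had 24 pooled cells. In the pool of UC 1, 2 and 3 the share of Cyct was 45.2, 4.05 and 4.62%, against 16.9 to 20.6% in spermatogonia, and that of Cox7b2 66.7, 43.5 and 45.8%, against 63.5 to 80%. In later spermatocytes every pair stood above its somatic range. The level of Cox8c in the pool was 220.1 to 1282 plain CPM, below that in later spermatocytes.

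A further pair of paralogs among the members also changed over. Ndufa4, named for complex I but now counted with complex IV, was at 409 to 448 plain CPM in UC spermatogonia and 10.0 to 14.0 in later spermatocytes. Its paralog Ndufa4l2 was at 4.07 to 29.9 and 79.9 to 94.2. Ndufa4l2 made up 3.67% ± 2.98 of the pair in spermatogonia, 28.5% ± 2.86 in early and 87.2% ± 2.83 in later spermatocytes. The muscle forms Cox6a2, Cox7a1 and Cox8b and the lung form Cox4i2 passed the filter on low counts in no class. Cox6a1 was at a mean of 459 in spermatogonia and 166 in spermatids.

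The X-linked members were low from later spermatocytes on. Ndufb11 was at 89.8 to 109 plain CPM in UC spermatogonia, 0.870 to 5.71 in later spermatocytes and 7.21 to 10.1 in spermatids. Ndufa1 was at 80.4 to 126 in spermatogonia, 124 to 175 in early spermatocytes and 12.2 to 20.2 in later ones. Ndufa13, an accessory subunit of complex I, was the sole member highest in spermatozoa-like cells. Its mean was 467 in spermatogonia, 216 in later spermatocytes, 204 in spermatids and 532 in spermatozoa-like cells. The complex II genes Sdhc and Sdhd, which anchor the complex in the membrane, were at means of 76.9 and 59.4 in spermatogonia and 1.67 and 4.26 in spermatids.

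T was then compared with UC in each class, to see what the members did under JQ1. Counts were summed per library over the cells of a class, scaled by the TMM method, and tested with edgeR's quasi-likelihood test over all genes with Benjamini-Hochberg adjustment; a member was called at an adjusted p below 0.05. Levels in these comparisons are TMM-normalised CPM, which differ from plain CPM by a scaling factor for each library. The filter on low counts left 83 members in spermatogonia, 82 in spermatocytes, 83 in spermatids and 82 in spermatozoa-like cells. The summed level of the members in plain CPM was 27023 to 28453 in T spermatogonia against 26185 to 27931 in UC, and 29726 to 31008 against 29278 to 31416 in spermatocytes. In spermatids it was 23623 to 24107 in T against 19427 to 20609 in UC, with no overlap. The log2 ratio of the summed level of the members, T vs UC, spermatids, was 0.24 in all cells and 0.040 in cells matched on pseudotime, an ordering of cells along differentiation.

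**Figure D3:**
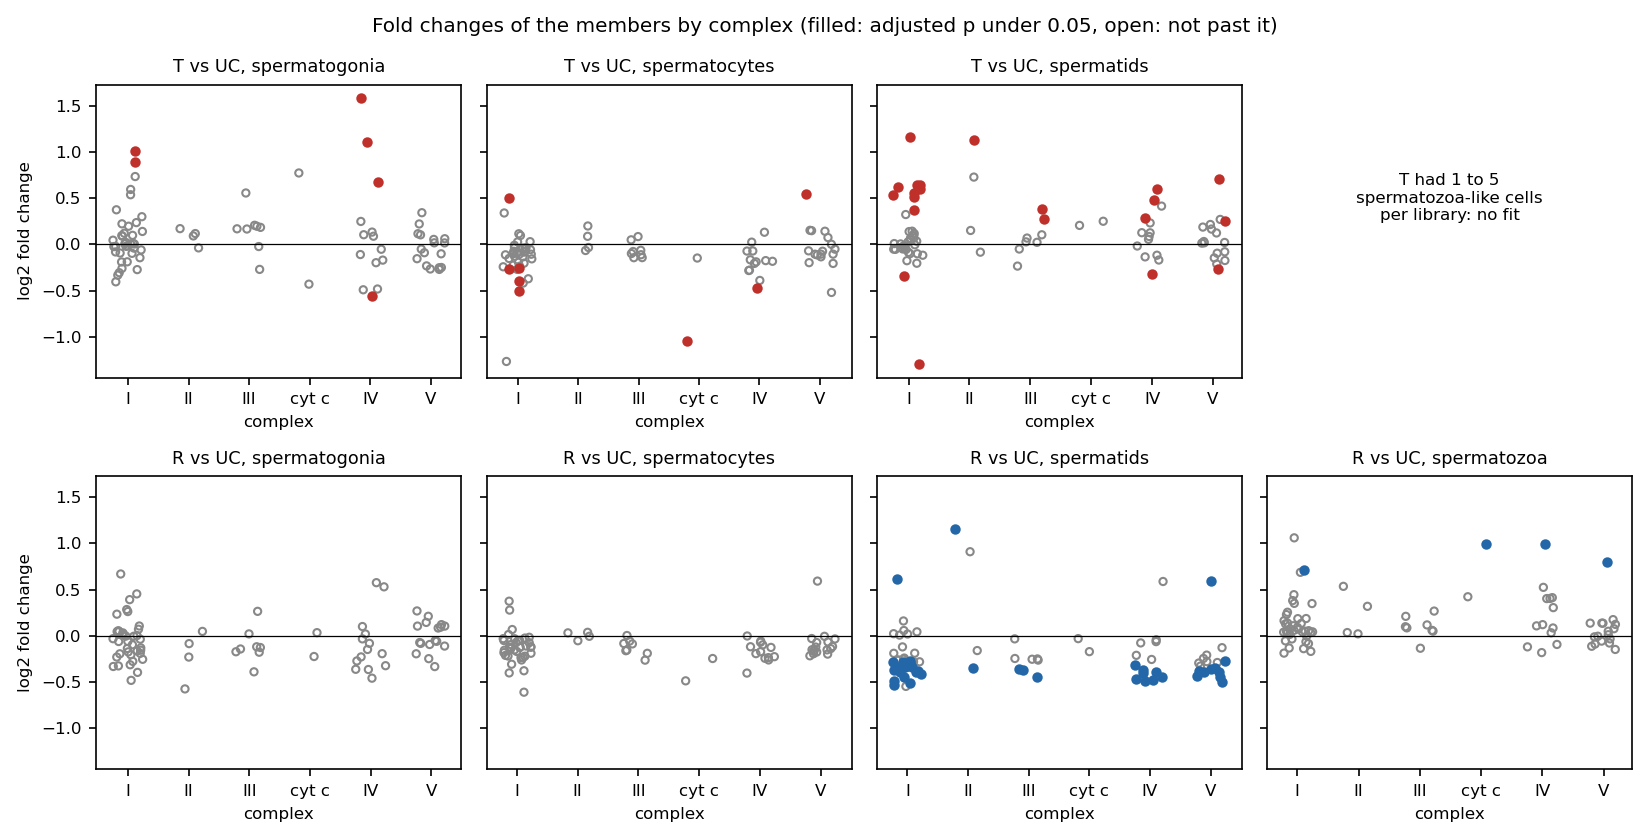
Log2 fold change of each tested member by complex, for T against UC and R against UC in each class; filled points are members with an adjusted p under 0.05. In spermatids 39 members were lower and 3 higher in R, and 17 higher and 4 lower in T.

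In spermatogonia-like cells, testis forms of complex IV were higher after JQ1. Cox8c was at 1086, 766 and 749 TMM-normalised CPM in T 1, 2 and 3 and 369, 121 and 392 in UC 1, 2 and 3, a log2 change of 1.58 ± 0.31 (SE; adjusted p = 0.0030). Cox6b2 was at 410.2, 265 and 268 in T and 164, 95.8 and 182 in UC (1.11, adjusted p = 0.038). Cox7b2 was at 292 to 364 and 167 to 226 (0.68, adjusted p = 0.031). The somatic Cox6b1 was lower, at 309.9 to 335 in T and 359 to 533 in UC (-0.56, adjusted p = 0.041). The T and UC libraries overlapped for none of the 4 genes. Cox8c was also high in some libraries without JQ1, at 339 to 827 in VC-R. In plain CPM it was at 1013, 731 and 721 in spermatogonia of T 1, 2 and 3. The somatic pool, read as a background, held it at 660 and 647 in T 1 and 3. In UC 1, 2 and 3 that pool held 1282, 220.1 and 363. The part of free RNA in the rise was not tested.

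Ndufb1-ps (0.89, adjusted p = 0.0069) and Ndufv3 (1.01, adjusted p = 0.022), both filed under complex I, completed the 6 called members, 5 higher and 1 lower of 83, where 5.59% of all genes were called, 4.01% higher and 1.57% lower. Cyct had a log2 change of 0.77 and Cycs of -0.43, with adjusted p of 0.087 and 0.14. Against the vehicle libraries of the same age Cox8c (2.02, adjusted p = 0.00032), Cox6b2, Cox7b2 and Cox6b1 were called again, whereas Ndufb1-ps (0.26) and Ndufv3 (-0.075) were not. The testis share in T spermatogonia was 33.8% for Cyct, 49.0% for Cox6b2, 84.4% for Cox7b2 and 63.0% for Cox8c. In VC-R, without JQ1, the mean shares were 33.2%, 30.6%, 77.8% and 50.4%. The highest VC-R library was at 42.1%, 41.4%, 93.5% and 61.7%, and the VC-R range overlapped that of T for all but Cox6b2. In VC-T 2 and 3 the mean shares were 15.2%, 19.9%, 67.4% and 24.1%. In the somatic pool of T, with 2 libraries, the mean shares were 9.21%, 38.2%, 58.2% and 48.8%. In spermatogonia of VC-T replicate 1, which by its label received no JQ1, the share was 48.4%, 64.5%, 87.9% and 76.4%.

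Markers of other stages moved with this result. All 6 later spermatocyte markers were detected in spermatogonia-like cells, and their sum was 590.4 to 842 plain CPM in T, 297 to 430.3 in UC and 857 in VC-T replicate 1. The 6 spermatid markers summed to 205 to 525 in T, 106 to 170 in UC and 47.4 to 548 in VC-R. The 7 spermatogonia markers summed to 1564 to 1921 in T and 1880 to 2116 in UC, and these ranges overlapped. The 4 protamine and transition protein genes summed to 195 to 689 in T and 6881 to 13297 in UC. With 27 cells per library matched on pseudotime edgeR called 0 of 64 members (5 had an unadjusted p under 0.05) and 9 of 1243 genes. Cox8c had a log2 change of 1.12 there. The part of later cells in the result was not tested. The count was 1 without UC replicate 2, 3 without UC replicate 3, 2 without T replicate 1, 2 with DESeq2, and 0 against vehicle with VC-T replicate 1 included (4 with an unadjusted p under 0.05). Among all genes these fits called 144, 286, 204, 253 and 2.

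In spermatocyte-like cells the share of members called was near that of all genes. The lower calls were 4 of 38 members of complex I, 1 of 13 of complex IV and Cycs. Cox6b2, the complex IV call, was at 1007, 994 and 993 TMM-normalised CPM in T 1, 2 and 3 and 1342, 1346 and 1473 in UC 1, 2 and 3, a log2 change of -0.48 ± 0.10 (SE; adjusted p = 0.0095). Ndufb7, an accessory subunit of complex I, was at 242, 237 and 247 in T and 324, 319 and 311 in UC (-0.40, adjusted p = 0.020). Ndufa13 was at 160.5 to 175 and 218 to 272 (-0.51, adjusted p = 0.025). For these 3 genes the T libraries lay below every UC and R library. Ndufb8 (-0.26) and Ndufa9 (-0.25) were also lower, as was Cycs, at 7.23 to 10.3 in T and 11.7 to 24.9 in UC (-1.04, adjusted p = 0.038).

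With Atp5k (0.54), a small subunit of complex V, and Ndufb1-ps (0.50) higher, 8 of 82 members were called, 2 higher and 6 lower, where 7.88% of all genes were called, 2.17% higher and 5.7% lower. In plain totals without TMM 4 were higher and 3 lower, where 644 of 14119 genes were higher and 683 lower. The median log2 change of all genes was 0.091 there in place of -0.0063. Against vehicle Cox6b2 (-0.48, adjusted p = 0.017), Ndufb7 and Cycs were called again, Ndufa13 was not (-0.40, adjusted p = 0.11), and Atp5k (-0.27) and Ndufb1-ps (-0.073) changed sign without a call. With 327 cells per library matched on pseudotime, 7 of the 8 were called again in the same direction, the exception being Cycs (-0.18). The block on replicate numbers gave 7 calls and left out Cycs (-1.05, adjusted p = 0.057).

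The calls in spermatocytes rested on the full set of libraries, and a cluster led by Lypd10 held 250 of 1588 UC spermatocytes and 0 of 6388 in T. The count was 1 without T replicate 1, 2 without T replicate 2, 3 without T replicate 3, 4 without UC replicate 1 and 5 without UC replicate 3. Among all genes these fits called 719, 448, 569, 731 and 1081. With VC-T replicate 1 among the vehicle libraries edgeR called 0 members (18 had an unadjusted p under 0.05) and 164 of 13752 genes. The protamine and transition protein genes summed to 91.2 to 372 plain CPM in T spermatocytes and to 26122, 4744 and 5547 in UC 1, 2 and 3, so UC 1 stood apart, and the part of this difference was not tested.

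In spermatid-like cells the call with the smallest adjusted p was Ndufa13. It was at 98.5, 82.6 and 84.2 TMM-normalised CPM in T 1, 2 and 3 and 217, 239 and 199.9 in UC 1, 2 and 3, with 243 and 262 in VC-T 2 and 3 and 171 to 180.4 in R. The T libraries lay below all others. The log2 change was -1.30 ± 0.12 (SE; adjusted p = 7.9e-08) against UC and -1.51 (adjusted p = 1.9e-08) against vehicle. Ndufb7 (-0.34), Cox6b2 (-0.32) and Atp5o (-0.26), a subunit of the stalk of complex V, were the other lower members.

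Most called members in spermatids were higher in T. Ndufb9 was at 225, 245 and 253 TMM-normalised CPM in T and 164, 163 and 166 in UC, a log2 change of 0.55 (adjusted p = 0.00013) and of 0.61 against vehicle. Cox6c, a small subunit of complex IV, was at 799 to 869 and 528 to 572 (0.60, adjusted p = 0.00035). The X-linked Ndufa1 was at 15.2 to 16.5 and 6.20 to 7.60 (1.16, adjusted p = 0.00014), but had a log2 change of 0.32 against vehicle (adjusted p = 0.19). The T and UC libraries overlapped for none of these genes. Ndufb3, Ndufb6, Ndufs1, Ndufb11, Ndufc2 and Ndufa3 of complex I and Uqcrh and Uqcrc2 of complex III were also higher, as were Cox8a (0.48) and Cox8c (0.28), the somatic and the testis form of a single subunit. Sdhc had a log2 change of 1.13 at low levels, 3.79 to 4.27 in T and 1.16 to 2.31 in UC.

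In all, 21 of 83 members were called in T spermatids, 17 higher and 4 lower, where 36.8% of all genes were called, 14.4% higher and 22.4% lower. In plain totals without TMM 38 were higher and 1 lower, where 4078 of 15108 genes were higher and 2684 lower. The median log2 change of all genes was 0.21 there in place of 0.017, and Ndufa13 stood at -1.09 and Ndufb9 at 0.75. The protamine and transition protein genes summed to 973 to 2396 plain CPM in T spermatids and 23993 to 26485 in UC, and the later spermatocyte markers to 1138 to 1216 and 708 to 858. The clusters led by Gm5458, 4930596D02Rik and Gm37294 held 1938, 1302 and 140 of 4288 T spermatids and 457, 452 and 443 of 1980 in UC.

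With 364 cells per library matched on pseudotime, 9 members were higher and 11 lower in T, where 773 of 9987 genes were higher and 1177 lower. The median log2 change of the members was -0.094 against 0.055 in all cells. Of the 21 calls, 11 were made again in the same direction. Ndufa13 (-0.62, adjusted p = 0.00012), Cox6b2 (-0.42) and Ndufb7 (-0.35) were lower, and Ndufb9 (0.41), Cox6c (0.38), Ndufa1 (1.07) and Cox8a (0.51) higher. The sign turned for 3 calls, Cox8c (-0.0024), Ndufc2 (-0.0048) and Uqcrc2 (-0.014). The count in all cells was 13 without UC replicate 2 and 13 without T replicate 2, and 9 against vehicle with VC-T replicate 1. Among all genes these fits called 4120 of 15217, 4399 of 14900 and 3315 of 14876.

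**Figure D4:**
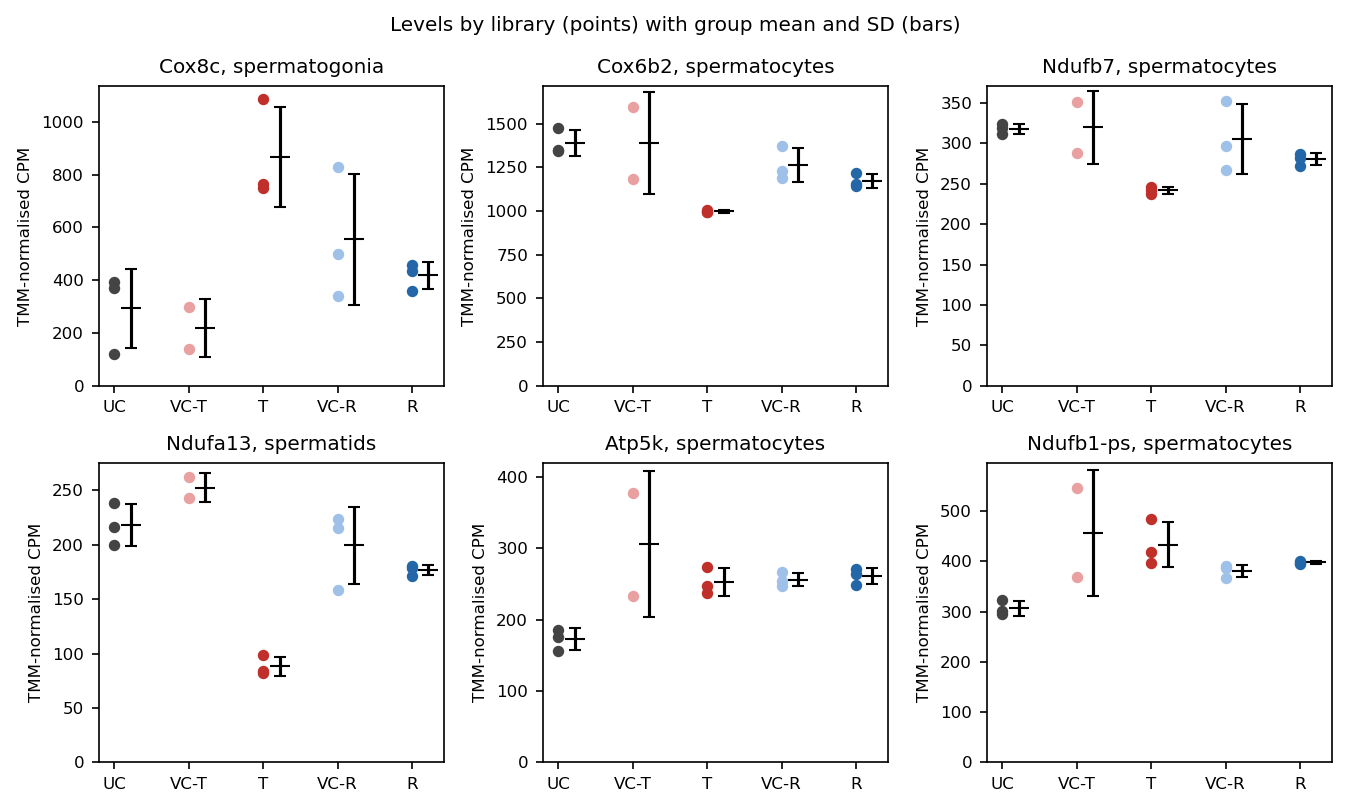
TMM-normalised CPM of 6 members by library in the class named in each panel, with group mean and SD (n = 3; n = 2 for VC-T, whose replicate 1 was left out). Ndufa13 in T spermatids (82.6 to 98.5) lay below all other libraries, and Atp5k and Ndufb1-ps in spermatocytes were lowest in the UC libraries.

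At 6 wk after withdrawal R was compared with UC, to see whether the members were back at control levels. In spermatogonia edgeR called 0 of 83 members and 0% of all genes (7 members had an unadjusted p under 0.05, and DESeq2 called 0). In spermatocytes edgeR called 0 of 82 among 0.0142% of all genes (22 members had an unadjusted p under 0.05, and DESeq2 called 1). The log2 changes in R spermatogonia were 0.53 for Cox8c, 0.58 for Cox6b2 and 0.020 for Cox7b2. Cox6b2 in R spermatocytes was at 1144 to 1218 TMM-normalised CPM (-0.24), between T and UC. With 332 cells per library matched on pseudotime, 3 members were higher in R spermatocytes, Atp5k (0.55), Ndufb1-ps (0.44) and Ndufa3 (0.30), and 5 were lower, among them Cyct (-0.34) and Ndufa13 (-0.32). There 60 of 11529 genes were higher and 83 lower.

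Many members were slightly lower in R spermatids, but different clusters held most of the class in R and UC. The clusters led by 4930509J09Rik, Hbb-bs, Ppfia2 and Agbl1 held 2082, 1384, 1525 and 1242 of 8333 R cells and 119, 115, 58 and 88 of 1980 UC cells. The clusters led by Gm5458, 4930596D02Rik and Gm37294 held 352, 427 and 438 R cells and 457, 452 and 443 UC cells. Hbb-bs is a haemoglobin gene of red blood cells, and the part of this difference was not tested. Of 83 members 42 were called, 39 lower and 3 higher, where 31.6% of all genes were called, 15.9% lower and 15.8% higher, and the median log2 change was -0.28 for members and 0.049 for all genes. Complex I had 18 lower of 38, complex III 3 of 8, complex IV 8 of 14 and complex V 9 of 17, and Sdhb was lower in complex II.

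Ndufs3, a core subunit of complex I, had the smallest adjusted p. It was at 115, 117 and 109 TMM-normalised CPM in R 1, 2 and 3 and 171, 165 and 151 in UC 1, 2 and 3, a log2 change of -0.51 ± 0.088 (SE; adjusted p = 0.0011). Cox5a was at 668, 731 and 692 in R and 981, 992 and 933 in UC (-0.47, adjusted p = 0.0020), and at 889 to 1023 in VC-R. Ndufa6 (-0.53), Atp5h (-0.45), Atp5o (-0.43) and Cox7a2l (-0.41), a factor in the assembly of respiratory supercomplexes, were lower to a like extent. For these 6 genes the R libraries lay below every UC library.

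The higher members were Sdhd (1.15, adjusted p = 0.034), Ndufa1 (0.62) and Atp5k (0.59). Sdhd was at 5.87, 10.9 and 12.0 TMM-normalised CPM in R and 6.59, 2.64 and 4.43 in UC, and these ranges overlapped. Among the testis forms Cox6b2 was called lower (-0.49), whereas Cox7b2 (-0.21), Cox8c (-0.062) and Cyct (-0.17) were not called. Against VC-R 40 members were lower and 2 higher, where 2072 of 15108 genes were lower and 2142 higher. Of the 42 calls 34 were made again in the same direction.

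The count rested on the scaling and on the cells included. In plain totals without TMM 9 members were lower and 5 higher, where 732 of 15108 genes were lower and 3981 higher. The median log2 change of all genes was 0.28 there in place of 0.049. In cells with at least 2000 UMIs 15 members were lower and 2 higher, where 1022 of 14608 genes were lower and 1284 higher. With 485 cells per library matched on pseudotime 10 members were lower and 13 higher, where 2146 of 11802 genes were lower and 1846 higher. The median log2 change of the members was -0.036 there. Of the 42 calls 10 were made again in the same direction: Cox5a (-0.17), Ndufa6 (-0.22), Atp5h, Atp5g1, Ndufa5, Ndufa7 and Ndufb8 lower, and Atp5k, Ndufa1 and Sdhd higher. The sign turned for 5 calls, Atp5d (0.11), Atp5j (0.041), Ndufa4l2 (0.046), Ndufa8 (0.015) and Ndufs4 (0.048). The count in all cells was 23 without R replicate 1 and 14 without R replicate 3. Among all genes these fits called 3198 of 14809 and 2084 of 14772. R spermatids held a median of 1446 to 1966 UMIs per cell and UC spermatids 3836 to 5266. The Sertoli markers summed to 84.4 to 98.5 plain CPM in R and 32.3 to 51.3 in UC, with all 8 detected, and the protamine and transition protein genes to 28801 to 30395 and 23993 to 26485. The parts of these differences in the result were not tested. The summed plain level of the members was 18676 to 19499 in R and 19427 to 20609 in UC, and the ranges overlapped. The log2 ratio of the summed level of the members, R vs UC, spermatids, was -0.068 in all cells and turned to 0.15 in matched cells.

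**Figure D5:**
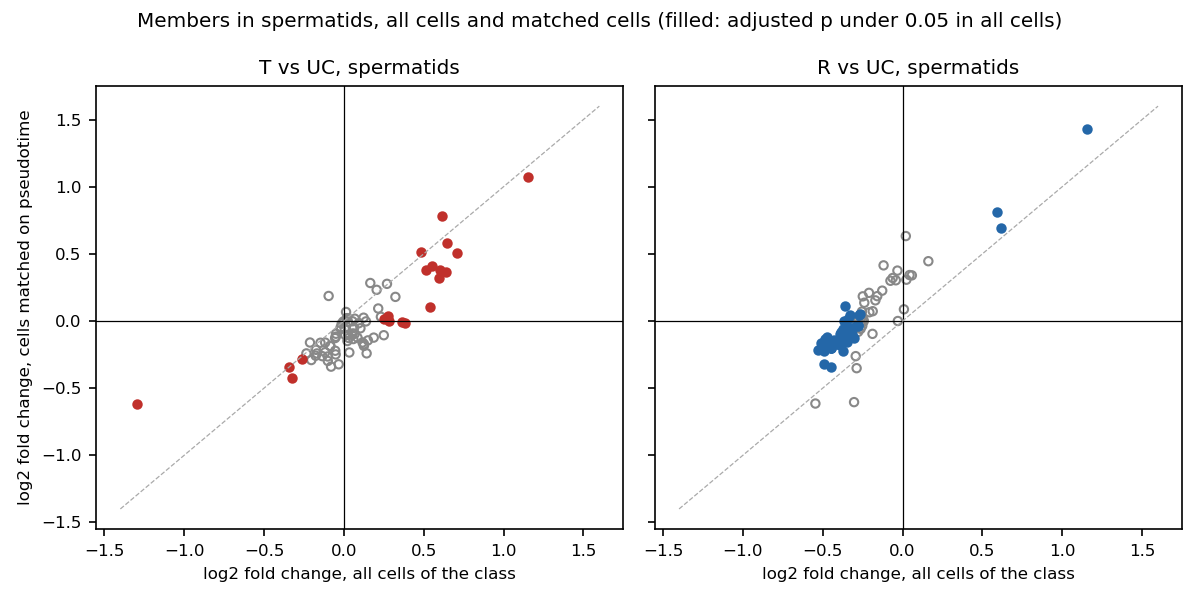
Log2 fold change of each member in spermatids with all cells of the class (x axis) and with cells matched on pseudotime (y axis), for T and R against UC; the dashed line marks equality. For R 72 of 81 members were below 0 in all cells and 47 in matched cells, and for T 30 and 55 of 80.

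In R spermatozoa-like cells 4 of 82 members were called, all higher, where 1.89% of all genes were called, 1.61% higher and 0.276% lower: Atp5k (0.79, adjusted p = 0.00076), Cox8a (0.99), Ndufb1-ps (0.72) and Cycs (0.99). The levels were low. Atp5k was at 38.3, 37.1 and 38.7 TMM-normalised CPM in R and 22.4, 19.5 and 23.7 in UC. Cox8a was at 6.40 to 6.50 and 3.04 to 3.50, and Cycs at 9.35 to 11.1 and 4.29 to 5.54. Against VC-R edgeR called 0 members (11 had an unadjusted p under 0.05) and 0 of all 12304 genes tested. The count was 11 in cells matched on pseudotime, where 704 of 11390 genes were called. A cluster led by 5031439G07Rik held 1152 of 10184 R cells and 27 of 5830 UC cells of the class.

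For some members it was UC that stood apart from every other group. Atp5k was at 157 to 186 TMM-normalised CPM in UC spermatocytes and at 233 to 378 in the other groups. Ndufb1-ps, a noncoding RNA from a bidirectional promoter in GENCODE and a coding gene in RefSeq, was at 296 to 324 in UC spermatocytes and 366 to 546 elsewhere. Neither was called in T against vehicle in spermatogonia, spermatocytes or spermatids. Ndufa3 was likewise lowest in UC spermatocytes, at 97.6 to 99.7 against 110.0 to 171, and Cox7a2l highest there. UC also lay below all other libraries for Ndufb1-ps and Ndufv3 in spermatogonia. In spermatozoa-like cells it did so for Atp5k, Cox8a, Ndufa3 and Ndufa1, and in spermatids UC was highest for Atp5g3. The share of all genes with UC apart was not computed. For these genes a change under or after JQ1 and a property of the UC libraries cannot be told apart.

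Few called members changed by more than 2-fold, an absolute log2 change over 1. For T against UC there were 3 against 4.29% of all genes in spermatogonia, 1 against 5.06% in spermatocytes and 3 against 15% in spermatids. For R against UC there were 0 against 0% in spermatogonia, 0 against 0.00708% in spermatocytes, 1 against 6.35% in spermatids and 0 against 0.512% in spermatozoa-like cells.

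T was also set against R directly. In spermatids 59 of 83 members differed, 58 higher and 1 lower in T, where 55.2% of all genes differed. The shares of all genes higher and lower were not computed. The median T minus R difference was 0.34 for members and -0.050 for all genes. Ndufa13 was the lower one (T minus R -0.99, adjusted p = 1.1e-06), and Cox8a (0.93), Ndufb9 (0.74) and Cox6c (0.68) were among the higher ones. With 451 cells per library matched on pseudotime 8 were higher and 16 lower in T, where 1974 of 11221 genes differed. In spermatogonia 2 of 83 differed, Cox8c (1.05, adjusted p = 0.024) and Cox7b2 (0.66, adjusted p = 0.023), both higher in T, where 4.85% of all genes differed. That count was 0 without T replicate 1, 1 without R replicate 1, 0 without R replicate 2 and 0 without R replicate 3. Among all genes these fits called 374, 394, 296 and 239. In spermatocytes 0 of 82 differed by edgeR and 0 by DESeq2 (4 had an unadjusted p under 0.05), where 3.54% of all genes differed. With matched cells 3 members were higher and 7 lower in T, where 1931 of 12959 genes differed. The age of the mice and the time since the last dose cannot be told apart here.

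The mitochondrially encoded subunits of the same complexes took another course. In R spermatids all 13 were higher than in UC, with a median log2 change of 1.76, where 15.8% of all genes were higher. The core complex IV gene mt-Co1 was at 1216, 1259 and 1573 TMM-normalised CPM in R and 374, 309 and 540.5 in UC (1.72, adjusted p = 0.00062). In T 4 of 13 were higher in spermatogonia, 5 in spermatocytes and 6 in spermatids and none was lower. Of all genes 4.01%, 2.17% and 14.4% were higher in these T classes. In R 2 were higher in spermatocytes, 4 in spermatozoa-like cells and 0 in spermatogonia, where 5 had an unadjusted p under 0.05 by edgeR. Of all genes 0.0142%, 1.61% and 0% were higher in these R classes. The log2 change of mt-Atp8 was 2.38 in T spermatids and 3.22 in R spermatids, and of mt-Nd4l 2.04 and 2.52; both genes overlap their neighbours. The part of cell quality in these differences was not tested.

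Other mitochondrial genes were also called in spermatids, where 36.8% of all genes were called in T and 31.6% in R. Of 16 TCA cycle and pyruvate dehydrogenase genes in spermatids, 6 were higher and 5 lower in T, among them the citrate synthase gene Cs (-1.21), and 1 was higher and 9 lower in R, among them the fumarase gene Fh1 (-0.79). Of 43 assembly factors 7 were higher and 6 lower in T spermatids and 2 were higher and 5 lower in R; Sco2, which delivers copper to complex IV, was lower in both (-0.58 and -0.55). Of 12 regulators of mitochondrial biogenesis 3 were higher and 2 lower in T spermatids, and 1 was higher and 1 lower in R. Tfam, which packages and transcribes mitochondrial DNA, was at 20.1, 8.08 and 7.45 TMM-normalised CPM in T spermatids, 189, 222 and 186 in UC and 264 to 288 in VC-T (-3.92, adjusted p = 4.0e-10). Tfam was at 1117 to 1276 in UC spermatozoa-like cells, the class nearly missing in T, and at 154, 25.2 and 29.5 in UC spermatocytes, where UC 1 also held the most protamine and transition protein RNA.

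In T spermatocytes edgeR called 0 of 17 TCA cycle genes (2 had an unadjusted p under 0.05), and of 49 assembly factors 1 was higher and 4 lower, with Cmc2 at -0.71. Of all genes 2.17% were higher and 5.7% lower there. In T spermatogonia the testis-specific pyruvate dehydrogenase gene Pdha2 (1.84, adjusted p = 0.017) and Crem (1.48, adjusted p = 0.017), a transcription factor of postmeiotic genes, were higher, as were 3 of 39 assembly factors, among them Ndufaf3 (1.56). There 4.01% of all genes were higher. In R spermatogonia and spermatocytes edgeR called none of the TCA cycle genes, assembly factors or regulators (3, 2 and 2 of them had an unadjusted p under 0.05 in spermatogonia, and 1, 5 and 0 in spermatocytes), and in R spermatozoa-like cells 3 of 39 assembly factors were higher. Of all genes 0% were called in R spermatogonia and 0.0142% in R spermatocytes, and 1.61% were higher in R spermatozoa-like cells.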

How the data were processed

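Single-cell RNA-seq counts of 15 testis libraries were used. Per the labels, the authors made the deposited count matrices with Cell Ranger 3.0.0 on mm10, whereas the matrix headers name Cell Ranger 7.0.0; whether intron reads were counted is not given in the sources used here. The matrices hold counts of molecules (UMIs) without normalization, as the authors deposited them. A cell was kept if it had 1000 or more UMIs from 500 or more genes and a mitochondrial share below 30%, and 5.40% of cells per library were removed by doublet score. Library pairs shared 0 to 46 cell barcodes. Cells were clustered (scanpy 1.11.5, 2000 variable genes, 30 components, Leiden resolution 1.20) and classes were named from markers, which need not match the authors' own names. Somatic cells were pooled after values had been seen.

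Counts were summed per library and class with at least 10 cells and tested with edgeR 4.0.16 (R 4.3.3; filterByExpr, TMM, quasi-likelihood test, all groups in a single fit without VC-T replicate 1, Benjamini-Hochberg adjustment over all genes). DESeq2 1.42.0 was an alternative. With 3 mice per group, p-values measure the spread between these mice. On simulated counts the test found 54% of the genes changed by 2-fold among 8492 genes in T spermatogonia, 71% of the genes changed by 2-fold among 13875 genes in T spermatocytes, 71% of the genes changed by 2-fold among 14755 genes in T spermatids and 69% of the genes changed by 2-fold among 12291 genes in R spermatozoa-like cells. Among the calls on simulated counts 3.80%, 6.63%, 4.55% and 4.52% were false in these 4 settings. The simulation gave all genes the same spread and changed only genes above a minimum mean count. It therefore does not measure detection in the data themselves. Pseudotime matching drew equal numbers of cells per library in each of 10 bins. In spermatocytes the deviations of same-numbered libraries of T and UC had correlations of 0.625, 0.370 and 0.134. Those of R and UC had -0.381, -0.455 and 0.0786. Libraries with different numbers were not correlated, so these values do not show that the number pairs libraries. A fit with the replicate number as a block was made.

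The members and gene lists were chosen with earlier results of these data known. Named genes were the isoform pairs and tissue forms, up to 6 higher and 6 lower members with the smallest adjusted p per comparison, the 5 most abundant per complex, and 2 genes per companion list; others named with stage values were chosen after their values were seen. Intervals of shares were not computed, since each share is given with its spread over libraries.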

Additional observations from a re-analysis of the deposited data

Results flagged for a closer look

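The effects of T and R differed by the direct contrast of T with R for named members in 2 classes, with an adjusted p under 0.05 in edgeR's quasi-likelihood test. In spermatids the T minus R difference in log2 was -0.99 for Ndufa13. Among the 29 other named members the difference was positive: Cox8a 0.93, Ndufb9 0.74, Cox6c 0.68, Ndufb6 0.66, Ndufb3 0.57, Ndufa1 0.54, Uqcrh 0.53, Ndufb1-ps 0.48, Ndufa6 0.48, Cox4i1 0.48, Ndufa7 0.48, Cyct 0.42, Ndufs3 0.41, Uqcrb 0.40, Cox7a2l 0.39, Atp5e 0.37, Atp5b 0.36, Cox8c 0.35, Ndufc1 0.34, Cox5a 0.34, Cox7b2 0.34, Uqcr10 0.33, Sdha 0.31, Atp5j 0.31, Ndufa9 0.30, Ndufa4l2 0.30, Atp5h 0.27, Sdhb 0.27 and Ndufb5 0.26. The median difference of all genes in spermatids was -0.050, and the share of all genes higher in T was not computed. With cells matched on pseudotime 8 members were higher and 16 lower in T, where 1974 of 11221 genes differed. In spermatogonia the difference was 1.05 for Cox8c and 0.66 for Cox7b2. VC-T replicate 1, which was left out of the main tests, had 2.69% of its UMIs in the members, against 1.61 to 1.82% in UC and 2.78 to 2.82% in T. These shares are over all cells of a library. VC-T replicate 1 held 0 spermatozoa-like cells, T libraries 1 to 5 and UC libraries 1750 to 2247. The label of VC-T replicate 1 gives vehicle alone, and the cause was not tested.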

How the results depend on the processing

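The fits without TMM and all alternatives of the direct contrast of T with R were chosen after seeing the data. Without TMM the members called numbered 14 in R spermatids and 39 in T spermatids, where 4713 and 6762 of 15108 genes were called. In cells with at least 2000 UMIs they numbered 17 in R spermatids and 16 in T spermatogonia. The genes called were 2306 of 14608 and 1034 of 8205. With cells matched on pseudotime the members called numbered 23 in R spermatids, 8 in R spermatocytes, 11 in R spermatozoa-like cells and 0 in T spermatogonia. The genes called were 3992 of 11802, 143 of 11529, 704 of 11390 and 9 of 1243. R spermatogonia had too few cells to match. DESeq2 called 1 member in R spermatocytes and 2 in T spermatogonia, and the fit with no filter on low counts 1 in R spermatocytes and 9 in R spermatozoa-like cells. The genes called were 17 of 14119, 253 of 8594, 7 of 26396 and 447 of 25287. Vehicle in place of UC gave 0 members in R spermatozoa-like cells and 10 in T spermatogonia, and UC and vehicle together 12 in T spermatogonia. The genes called were 0 of 12304, 991 of 8594 and 1160 of 8594. With VC-T replicate 1 included the vehicle comparison gave 0 members in T spermatogonia, 0 in T spermatocytes and 9 in T spermatids. The genes called were 2 of 8145, 164 of 13752 and 3315 of 14876. With only the 2 groups compared in the fit there were 11 members in R spermatozoa-like cells and 5 in T spermatocytes, and with doublets kept 10 in T spermatogonia. The genes called were 930 of 12719, 294 of 12530 and 983 of 9024. Leaving out a library at a time gave 14 to 38 member calls in R spermatids, 13 to 16 in T spermatids, 1 to 7 in T spermatocytes and 1 to 5 in T spermatogonia. Calls among all genes were 2084 to 4381, 4120 to 4968, 448 to 1371 and 144 to 406.

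The summed level of the members, T vs UC, spermatogonia, had a log2 ratio of 0.028 against UC, -0.11 against vehicle, -0.027 against UC and vehicle together, 0.087 with doublets kept and -0.030 in matched cells. The summed level of the members, T vs UC, spermatocytes, had -0.0041 against UC, -0.13 against vehicle and -0.057 against both. The summed level of the members, T vs UC, spermatids, had 0.24 against UC, 0.20 against vehicle and 0.040 in matched cells, and the summed level of the members, R vs UC, spermatids, -0.068 in all and 0.15 in matched cells. In matched cells the sign turned for 5 of 42 calls in R spermatids and 3 of 21 in T spermatids. Among genes named by the fixed rule these were log2 fold change of Atp5j, R vs UC, spermatids (0.041), log2 fold change of Ndufa4l2, R vs UC, spermatids (0.046) and log2 fold change of Cox8c, T vs UC, spermatids (-0.0024). Against vehicle without and with VC-T replicate 1 the signs of genes named by that rule changed for log2 fold change of Atp5k, T vs UC, spermatocytes (-0.27 and -0.29), log2 fold change of Ndufb1-ps, T vs UC, spermatocytes (-0.073 and -0.076) and log2 fold change of Ndufv3, T vs UC, spermatogonia (-0.075 and -0.030). The cause was not tested for any of these.

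In the direct contrast of T with R matched cells gave 24 calls in spermatids, 10 in spermatocytes and 0 in spermatogonia. Among all genes they gave 1974 of 11221, 1931 of 12959 and 11 of 2155. In spermatogonia DESeq2 gave 0, cells with at least 2000 UMIs 8, and leaving out a library at a time 0 to 2. Calls among all genes were 235, 1010 and 239 to 394. The replicate block gave 5, 7 and 18 member calls in T spermatogonia, spermatocytes and spermatids against UC. Among all genes it gave 487 of 8594, 1004 of 14119 and 5139 of 15108. In R spermatogonia, spermatocytes, spermatids and spermatozoa-like cells it gave 0, 0, 38 and 4 members. The genes called were 0 of 8594, 1 of 14119, 4074 of 15108 and 224 of 12304. The libraries of a block are known to share only a number. The classes with fewest cells limit detection: T held few spermatozoa-like cells, and matched T spermatogonia 27 cells per library.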
